A study of Homo sapiens with 12 samples.

Results

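The clustered protocadherins are cell adhesion proteins encoded side by side in the PCDHA, PCDHB and PCDHG gene clusters. Every row of the count table whose symbol is a member code of these clusters (PCDHA1 to PCDHAC2, PCDHB1 to PCDHB16, PCDHGA1 to PCDHGC5) was taken, and names ending in P were left out. This gave 52 of the 56638 rows, 15 of PCDHA, 16 of PCDHB and 21 of PCDHG. PCDHGB5 was not analysed here. RNA-seq was made from NT2/D1, a human pluripotent embryonal carcinoma cell line that can be driven towards neurons with all-trans retinoic acid (ATRA). The 4 groups were PRMT6 knockout cells without ATRA (KO untreated), CRISPR/Cas9 control cells without ATRA (control untreated), knockout cells given 1 µM ATRA for 3 days (KO ATRA) and control cells given the same ATRA (control ATRA), with 3 libraries in each. PRMT6 is an arginine methyltransferase of histones. All knockout libraries carry the line name KO-2, so knockout and this line cannot be told apart. Nothing in the labels ties the libraries of a group to separate cultures, and the p-values therefore cover no more than the spread among these libraries, which may be technical.

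In each of the PCDHA and PCDHG clusters a row of variable exons, each with its own promoter, is spliced to shared constant exons. PCDHB genes are single exons without such a constant part. The proteins form homophilic contacts between neurons, where each cell uses its own subset of isoforms and so tells its own processes from those of others. In neurons, CTCF and cohesin loop distant enhancers to the promoter that is used, DNA methylation silences the rest, and the C-type members (PCDHAC1, PCDHAC2, PCDHGC3, PCDHGC4 and PCDHGC5) are expressed more uniformly than the alternate members.

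The promoters of most alternate members carry a short conserved element around the letters CGCT, next to which CTCF binds. Promoters are shown to let the members described below be recognised by this element. They come from RefSeq, build GRCh38.p14, as windows of 250 bases before and 50 after each gene start, and 46 of the 52 members had an entry, all on chromosome 5. CGCT, searched on both strands, was in 45 of these 46, against 71.9% of all 27305 genes with an entry, and PCDHA9 lacked it. For each cluster an 11-letter word holding CGCT was then taken from these promoters, such that no other such word occurs in more of the cluster's promoters. ATGATGTCGCT was in 8 members, all PCDHA, and in 8 genes (0.0293%) of all, searched on both strands. The bases around it are shown for the 3 of these members that were called higher in the untreated knockout, on the plus strand, with the word in capitals.
PCDHA4 promoter, chr5:140806948-140807038: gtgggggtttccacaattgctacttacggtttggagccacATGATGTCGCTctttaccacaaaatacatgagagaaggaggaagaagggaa
PCDHA7 promoter, chr5:140834141-140834231: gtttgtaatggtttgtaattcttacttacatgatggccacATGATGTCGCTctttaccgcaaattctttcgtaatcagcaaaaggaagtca
PCDHA12 promoter, chr5:140875213-140875303: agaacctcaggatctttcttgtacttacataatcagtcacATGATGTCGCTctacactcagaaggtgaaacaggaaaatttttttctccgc

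GGTGGCGCTGC, which also holds CGCT, was in 11 members, all PCDHB, and in 34 genes (0.125%) of all. The windows are those of the most abundant PCDHB genes and of the members with the largest differences between knockout libraries, on the plus strand with the word in capitals.
PCDHB2 promoter, chr5:141094515-141094605: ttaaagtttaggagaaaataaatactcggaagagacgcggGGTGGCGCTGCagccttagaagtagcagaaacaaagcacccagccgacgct
PCDHB5 promoter, chr5:141135150-141135205: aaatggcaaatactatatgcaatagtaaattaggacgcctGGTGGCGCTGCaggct
PCDHB16 promoter, chr5:141182281-141182371: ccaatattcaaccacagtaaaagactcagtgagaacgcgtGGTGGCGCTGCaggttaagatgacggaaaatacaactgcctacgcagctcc
PCDHB9 promoter, chr5:141187045-141187135: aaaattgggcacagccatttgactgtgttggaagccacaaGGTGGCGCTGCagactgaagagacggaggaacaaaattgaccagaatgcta
PCDHB13 promoter, chr5:141213836-141213918: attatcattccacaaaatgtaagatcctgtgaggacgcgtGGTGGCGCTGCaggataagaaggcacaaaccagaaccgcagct

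GCGCCGCTGTT, again holding CGCT, was in 6 members, all PCDHG, and in 13 genes (0.0476%) of all. The windows are those of the 2 tested members with this word, the abundant PCDHGA10 and the scarce PCDHGA9, on the plus strand with the word in capitals.
PCDHGA10 promoter, chr5:141412903-141412986: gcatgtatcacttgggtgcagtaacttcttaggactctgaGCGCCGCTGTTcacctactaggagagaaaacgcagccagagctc
PCDHGA9 promoter, chr5:141402686-141402776: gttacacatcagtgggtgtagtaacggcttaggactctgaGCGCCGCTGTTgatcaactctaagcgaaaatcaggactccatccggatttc
None of these 3 words was in the windows of PCDHAC1, PCDHAC2, PCDHGC3, PCDHGC4, PCDHGA11 or PCDHGB7. Their absence says only that these letters are not there.

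The libraries held 25.5 to 60.4 M counts, of which 3865 to 9114 fell on the 52 members. Levels are in CPM, the count in each 1 M of a library, on library sizes scaled by the trimmed mean of M-values, and 3 counts equalled 0.0432 to 0.128 CPM. PRMT6 was at 0 to 0.0587 CPM in knockout libraries, against 1.94 to 29.9 CPM in control libraries. The lowest control was control untreated 2, at 1.94 CPM, against 22.4 and 8.93 CPM in control untreated 1 and 3. The pluripotency genes POU5F1, NANOG, LIN28A, DPPA4 and TDGF1 summed to 2603 to 4601 CPM in KO untreated and 2547 to 4127 CPM in control untreated libraries. Their sum was 4601 CPM in KO untreated 3, against 2603 and 2611 CPM in KO untreated 1 and 2. In KO ATRA 2 it was 2347 CPM, against 1302 and 1278 CPM in KO ATRA 1 and 3. Knockout libraries did not form even groups. KO untreated 3 and KO ATRA 2 stood apart in the sum of 6 fibroblast markers (COL3A1, COL1A1, COL1A2, DCN, LUM, POSTN). This sum was 1868 and 2060 CPM in them, against 11947 to 13320 CPM in the other 4 knockout libraries. In control libraries it was 13.9 to 1172 CPM. COL3A1 made up most of the sum in every knockout library. COL3A1, COL1A1, DCN, LUM and POSTN were each lower in both libraries than in the other knockout libraries. COL1A2 was not, at 47.3 CPM in KO untreated 3, against 36.0 and 38.0 CPM in KO untreated 1 and 2. Its level in KO ATRA 2 lay between those in KO ATRA 1 and 3. KO untreated 1 and 2, and KO ATRA 1 and 3, were near copies of each other: their members' counts differed by a chi-square of 1.65 and 1.33 per gene, against 3.67 to 21.8 in the other pairs of a group. Their counts over all genes differed by 9.01 and 1.91 per gene, more than counting noise, so they were kept as separate libraries, and the counts of called members are also given with each pair summed to 1 library.

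A few genes supplied most of the signal. PCDHB5 averaged 64.4 CPM over the 12 libraries, PCDHGC3 29.7 CPM, PCDHB2 29.3 CPM, PCDHGB7 11.8 CPM and PCDHGC4 9.28 CPM. PCDHB5 and PCDHB2 together held 79.7% to 91.5% of the PCDHB counts in every library. The top 3 of PCDHG (PCDHGC3, PCDHGB7 and PCDHGC4) held 62.2% to 78.9%, and those of PCDHA (PCDHA4, PCDHAC2 and PCDHAC1) 47.0% to 62.5%. At the other end, 29 members, 8 of PCDHA, 7 of PCDHB and 14 of PCDHG, averaged below 1 CPM. PCDHA2 and PCDHA3 had 2 counts each in all libraries together.

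Part of these orders depends on shared sequence. In GENCODE v44 canonical transcripts, 48.2% to 68.4% of the 50-base windows of a PCDHA transcript and 44.9% to 54.8% of a PCDHG transcript also occur in another member, mostly in the common constant exons, against 0% to 45.5% for PCDHB. How reads with several matches were counted is not given in the sources used here, so reads of the constant exons may be shared among members or lost. Per kilobase of sequence found in no other member, mean levels were 21.9 CPM for PCDHB5, 11.5 for PCDHGC3, 9.10 for PCDHB2, 5.03 for PCDHGB7, 3.59 for PCDHGC4 and 2.15 for PCDHA4. On this scale PCDHAC1 (0.939 CPM) fell behind PCDHA7 (1.46 CPM), PCDHA11 (1.20 CPM) and PCDHA12 (1.08 CPM). Per kilobase of the whole transcript PCDHB5 (18.9 CPM) again led, while PCDHB2 (7.16 CPM) came before PCDHGC3 (6.23 CPM). The genes are on the plus strand one after another, and the counting's strand setting is not given either.

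**Figure D1:**
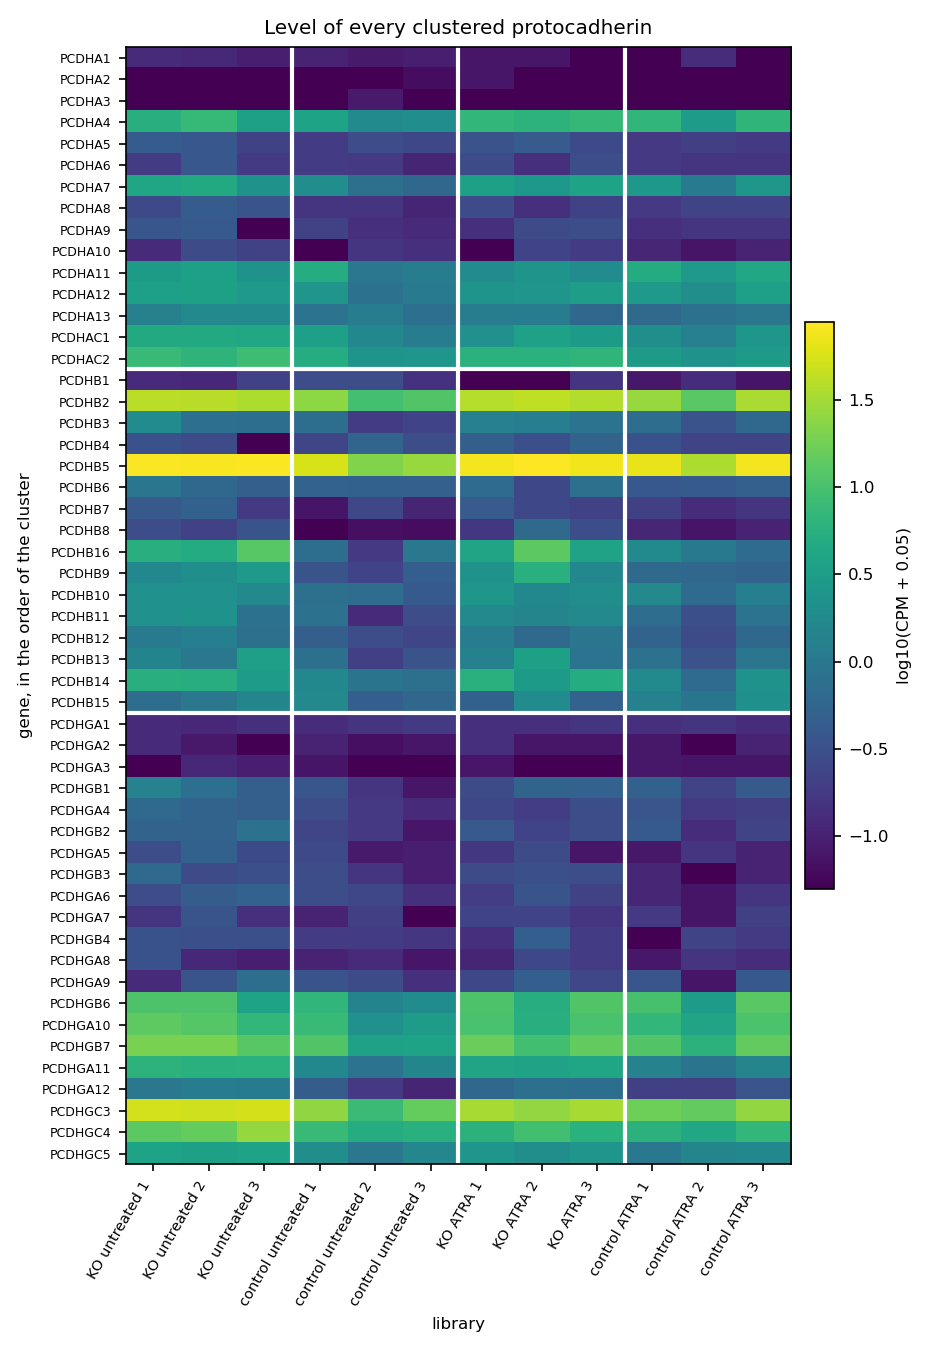
Level of each of the 52 genes (rows, in cluster order, white lines between PCDHA, PCDHB and PCDHG) in each library (columns, 3 per group), coloured by log10(CPM + 0.05). PCDHB5, PCDHB2 and PCDHGC3 are the brightest rows in every library, and PCDHA1, PCDHA2, PCDHA3, PCDHGA1, PCDHGA2 and PCDHGA3 are near 0 throughout.

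Without ATRA, the clustered protocadherins as a whole were higher in the knockout. Their summed level was 302, 298 and 292 CPM in the KO untreated libraries, against 176, 68.0 and 86.2 CPM in the control untreated libraries (298 ± 4.87 against 110 ± 58.0, SD, n = 3 each), a ratio of 2.70. The knockout libraries were close together and all lay above the controls, which were widely spread, with control untreated 1 the highest. PCDHA summed to 30.3, 33.1 and 26.3 CPM in KO untreated and 22.8, 9.87 and 9.47 CPM in control untreated. PCDHB summed to 147, 142 and 147 CPM in KO untreated and 88.4, 34.6 and 43.5 CPM in control untreated. PCDHG summed to 125, 123 and 119 CPM in KO untreated and 65.1, 23.5 and 33.2 CPM in control untreated. Each of the 3 clusters had ratios above 2, namely 2.13 for PCDHA, 2.62 for PCDHB and 3.01 for PCDHG, with no overlap between the groups. Without its C-types PCDHA overlapped, at 18.1, 22.1 and 13.3 CPM in KO untreated and 14.5, 5.98 and 5.86 CPM in control untreated. PCDHG without its C-types did not overlap, at 34.1 CPM or more in KO untreated and at most 30.4 CPM in control untreated. The PCDHGB genes alone overlapped, with KO untreated 3 at 18.1 CPM and control untreated 1 at 19.2 CPM. In bulk RNA, more cells that express a gene and more RNA per cell cannot be told apart.

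**Figure D2:**
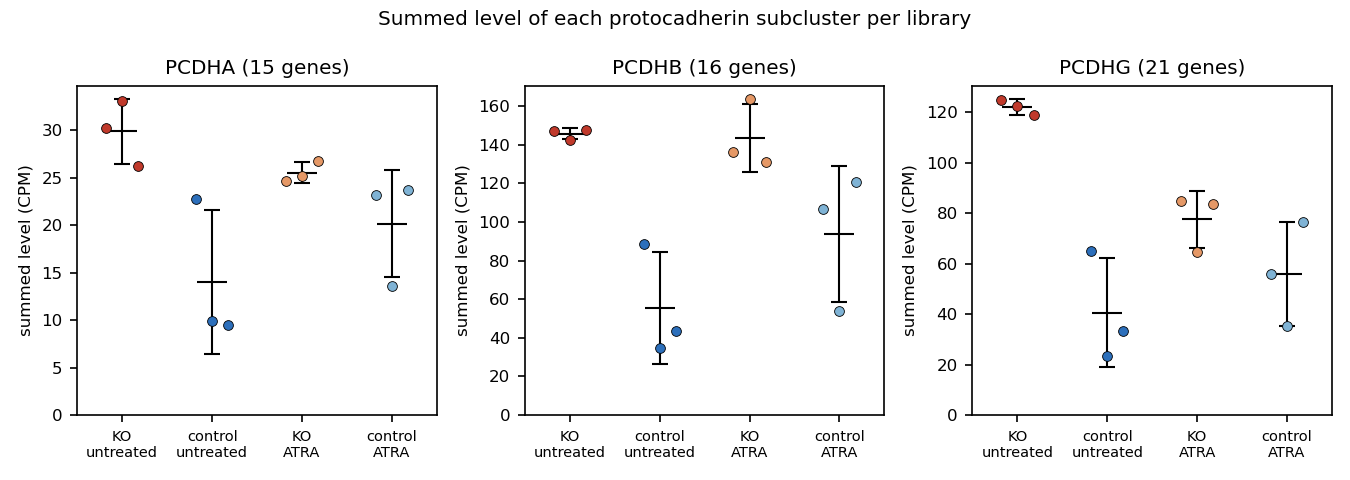
Summed CPM of each cluster (y axis) in each library (points, replicates 1 to 3 from left to right), with mean and SD per group as bars. In the untreated groups the 3 KO libraries lie above the 3 control libraries in each panel, and with ATRA they lie above for PCDHA and PCDHB and overlap the controls for PCDHG.

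Single genes were tested with edgeR's quasi-likelihood test over 19130 genes, with Benjamini-Hochberg adjustment over all of them and a call at an adjusted p under 0.05; every adjusted p below is of this kind unless another tool is named. The filter on low counts kept 35 of the 52 members, 8 of PCDHA, 14 of PCDHB and 13 of PCDHG, and the 17 left out had 2 to 78 counts over all libraries. A member can pass this filter through the group where it is high, so counts among the 35 describe those members and not all 52. In KO untreated against control untreated, 23 of the 35 were higher, where 13% of all genes tested were called higher, and 0 were lower, where 21.9% of all genes were called lower. DESeq2 and limma-voom also called 0 lower, and 0 were lower at an unadjusted p under 0.05. By cluster 5 PCDHA, 9 PCDHB and 9 PCDHG genes were higher. The median log2 fold change was 1.46 over the 35 and -0.11 over all genes, and 34 of 35 were above 0, against 46.4% of all genes. An unadjusted p under 0.05 was reached by 26 members and by 47.3% of all genes. PCDHB4 was the exception, at -0.87 ± 0.72 (log2, SE; adjusted p = 0.357). For 23 members every KO untreated library was above every control untreated library, against 20.9% of all genes.

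The count of calls depended on single libraries. It was 19 without KO untreated 3, 13 without KO untreated 1, 12 without KO untreated 2, 27 without control untreated 1, 14 without control untreated 2 and 9 without control untreated 3. With the near-copy knockout libraries summed it was 6, 5 of them among the 23. How many of all genes were called in these fits is not given here. Calls lost by the members and calls lost by all genes therefore cannot be told apart. PCDHB16, PCDHB9, PCDHGA11, PCDHGC3 and PCDHGC4 were called higher in all 15 settings tried. Of the other members described with full values, PCDHAC2 and PCDHGC5 were called in 13 of 15, PCDHB5 in 12, PCDHB2 in 10, PCDHGB7 in 9, PCDHA4 in 7 and PCDHAC1 in 6. Without control untreated 1 the log2 fold changes of PCDHA7, PCDHA12, PCDHB11, PCDHB13, PCDHGB1, PCDHGB7 and PCDHGA12 moved up by over 1.5 times as folds, to 2.47, 1.82, 3.42, 3.04, 3.61, 2.25 and 3.53. Without KO untreated 3 that of PCDHB13 was 1.60 (adjusted p = 0.134).

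In PCDHA, the C-type PCDHAC2, which in mouse spaces serotonergic axons, was at 7.52, 6.38 and 8.64 CPM in KO untreated and 4.99, 2.32 and 2.48 CPM in control untreated. All knockout libraries were above all controls, and the gene was higher by 1.21 ± 0.33 (log2, SE; adjusted p = 0.0157). PCDHAC1, the other C-type of this cluster, was at 4.64, 4.68 and 4.36 CPM in KO untreated and 3.33, 1.57 and 1.12 CPM in control untreated, higher by 1.19 ± 0.42 (adjusted p = 0.0456). PCDHA4, the most abundant alternate member of PCDHA, was at 5.41, 7.39 and 3.42 CPM in KO untreated and 3.73, 1.67 and 1.87 CPM in control untreated. It was called higher by 1.16 ± 0.42 (adjusted p = 0.0479), although KO untreated 3 lay below control untreated 1. PCDHA7 and PCDHA12, named after their values were seen, were also higher, by 1.78 and 1.20 (log2). PCDHA5, PCDHA11 and PCDHA13 had log2 fold changes of 0.59, 0.26 and 0.80 and were not called.

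In PCDHB, the gene with the largest fold was PCDHB16. It was at 5.37, 4.94 and 12.7 CPM in KO untreated and 0.693, 0.123 and 0.936 CPM in control untreated, a 13.0-fold difference (log2 3.70 ± 0.77, SE; adjusted p = 0.00606). KO untreated 3 had more than the other knockout libraries, and no control reached the lowest of them. PCDHB9 was at 1.58, 2.03 and 2.82 CPM in KO untreated and 0.293, 0.176 and 0.418 CPM in control untreated, 7.13-fold higher (log2 2.83 ± 0.53; adjusted p = 0.00433). PCDHB9 shares 17.4% of its 50-base windows with PCDHB10, and PCDHB16 shares 9.92% with PCDHB10, so part of their counts may be exchanged. PCDHB5, which alone made up most PCDHB counts, was at 83.7, 80.9 and 84.7 CPM in KO untreated and 55.5, 21.0 and 27.4 CPM in control untreated. Its groups did not overlap, and its difference was smaller, 2.40-fold (log2 1.26 ± 0.35; adjusted p = 0.0171). PCDHB2 was at 39.9, 39.6 and 34.5 CPM in KO untreated and 24.4, 9.32 and 11.3 CPM in control untreated, higher by 1.34 ± 0.38 (log2, SE; adjusted p = 0.019). The other 5 called PCDHB genes, PCDHB10 to PCDHB14, follow each other in the cluster downstream of PCDHB16 and PCDHB9, and had log2 fold changes of 1.74, 2.31, 1.80, 2.27 and 2.13. PCDHB3, PCDHB4, PCDHB6, PCDHB7 and PCDHB15 were not called by edgeR, at -0.87 to 1.72. DESeq2 and limma-voom both called PCDHB3 higher, which edgeR put at 1.72 ± 0.63 (adjusted p = 0.0522).

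In PCDHG, the most abundant gene was the C-type PCDHGC3, whose mouse counterpart binds Axin1 and restrains Wnt signalling. It was at 52.1, 51.0 and 54.6 CPM in KO untreated and 25.2, 8.09 and 15.1 CPM in control untreated, higher by 1.70 ± 0.36 (log2, SE; adjusted p = 0.0062). PCDHGC4, which in mouse is needed for the survival of neurons, was at 13.5, 14.9 and 26.4 CPM in KO untreated and 7.52, 5.03 and 5.65 CPM in control untreated, higher by 1.59 ± 0.34 (adjusted p = 0.00639). PCDHGC5 was at 3.72, 3.40 and 3.77 CPM in KO untreated and 1.97, 0.915 and 1.53 CPM in control untreated, higher by 1.30 ± 0.35 (adjusted p = 0.0146). For each of the 3 PCDHG C-types the knockout libraries lay above all controls. All 5 C-types of both clusters were called higher in the fit over all 12 libraries. Not all of these calls held elsewhere: with the near-copy knockout libraries summed the adjusted p was 0.134 for PCDHAC1, 0.0699 for PCDHAC2 and 0.0718 for PCDHGC5. PCDHAC1 also missed the threshold with a replicate block (adjusted p = 0.0627) and without a filter on low counts (0.0701), and PCDHGC5 with the GC trend removed (0.0738). The C-type sum was 81.4, 80.3 and 97.8 CPM in KO untreated, against 43.0, 17.9 and 25.9 CPM in control untreated.

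Among the alternate PCDHG members, PCDHGA11 had the smallest adjusted p of all 35. It was at 6.22, 5.69 and 5.90 CPM in KO untreated and 1.60, 0.809 and 1.50 CPM in control untreated, 4.56-fold higher (log2 2.19 ± 0.34, SE; adjusted p = 0.00276). Knockout libraries were tightly grouped, KO untreated 3 included. PCDHGB7, the most abundant alternate member, was at 19.5, 19.5 and 12.7 CPM in KO untreated and 11.6, 3.55 and 3.72 CPM in control untreated, higher by 1.46 ± 0.48 (adjusted p = 0.0326), with KO untreated 3 only just above control untreated 1. PCDHGB1, PCDHGA4, PCDHGB2 and PCDHGA12, named after their values were seen, were higher by 2.54, 1.85, 2.42 and 2.51 (log2), and averaged 0.262 to 0.530 CPM over all libraries. The abundant neighbours PCDHGB6 and PCDHGA10 were not called by edgeR, at 1.35 ± 0.67 and 1.33 ± 0.51 (log2, SE; adjusted p = 0.132 and 0.0611), and KO untreated 3 overlapped the controls for both. DESeq2 and limma-voom both called PCDHGA10 higher.

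**Figure D3:**
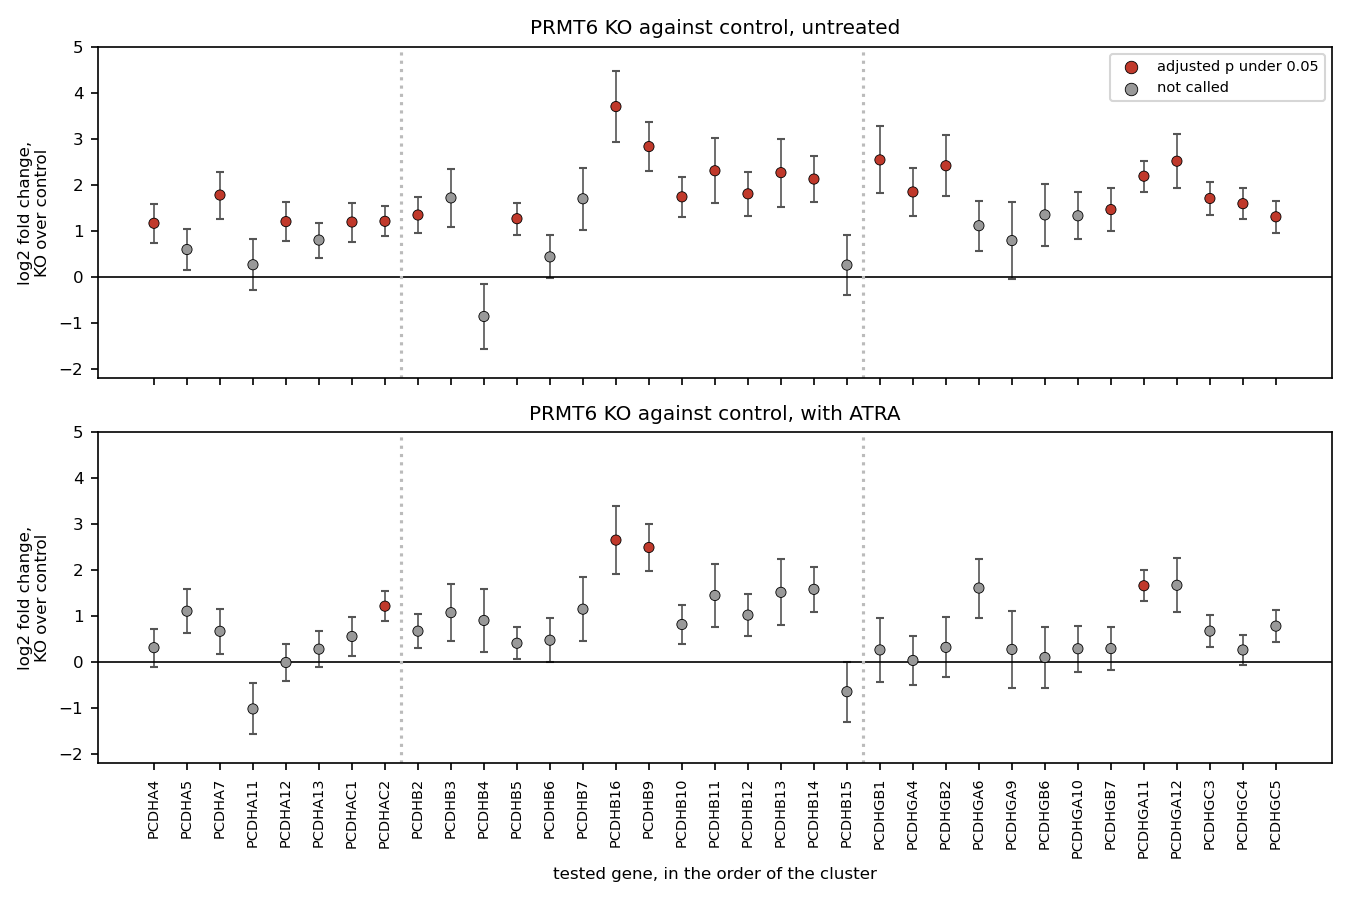
Log2 fold change, KO over control, with its SE (bars), for the 35 tested genes in cluster order (dotted lines between clusters), untreated above and with ATRA below; red points have an adjusted p under 0.05. Without ATRA 34 of 35 points lie above 0 and 23 are red, and with ATRA 32 lie above 0 and 4 are red.

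Members called higher without ATRA were found with and without the promoter words. Of the members with ATGATGTCGCT 4 were tested and 3 were higher, of those with GGTGGCGCTGC 10 were tested and 7 were higher, and of those with GCGCCGCTGTT 2 were tested and 0 were higher in edgeR, while DESeq2 and limma-voom called 1 of them, PCDHGA10. Of the members that had a promoter entry and none of the 3 words, 14 were tested and 10 were higher. These counts stand beside 23 of 35 over all tested members and 13% of all genes, and the groups were not tested against each other.

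With ATRA, fewer members were called. The summed level of all 52 was 245, 253 and 241 CPM in KO ATRA and 186, 103 and 221 CPM in control ATRA (247 ± 6.08 against 170 ± 60.7, SD, n = 3 each), a ratio of 1.45. Every knockout library again lay above every control library, and control ATRA 2 was the lowest. Control ATRA 2 also differed in the pluripotency genes, which summed to 3034 CPM, against 1984 and 2289 CPM in control ATRA 1 and 3. Its POU5F1 was at 895 CPM, against 147 and 148 CPM, while its LIN28A was at 1884 CPM, against 1723 and 1959 CPM. Whether this library responded less to ATRA was not tested. PCDHA summed to 24.6, 25.2 and 26.8 CPM in KO ATRA and 23.2, 13.6 and 23.7 CPM in control ATRA. PCDHB summed to 136, 164 and 131 CPM in KO ATRA and 107, 53.8 and 121 CPM in control ATRA. PCDHG summed to 84.7, 64.7 and 83.6 CPM in KO ATRA and 55.7, 35.4 and 76.5 CPM in control ATRA. The groups did not overlap for PCDHA and PCDHB and overlapped for PCDHG. Without its C-types PCDHA was at 16.6, 15.8 and 17.5 CPM in KO ATRA and 18.3, 10.2 and 18.3 CPM in control ATRA. These values overlapped, with a ratio of 1.06. In edgeR's test 4 of the 35 were higher, where 3.27% of all genes were called higher, and 0 were lower, where 4.24% were called lower; DESeq2 and limma-voom called 0 lower as well, and 0 were lower at an unadjusted p under 0.05. The median log2 fold change was 0.67 over the members and -0.06 over all genes, and 32 members were above 0, against 46.7% of all genes. An unadjusted p under 0.05 was reached by 10 members and by 28.1% of all genes.

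The 4 genes were PCDHGA11, PCDHB9, PCDHAC2 and PCDHB16, all of which were also higher without ATRA. PCDHGA11 was at 3.82, 3.61 and 3.94 CPM in KO ATRA and 1.32, 0.831 and 1.45 CPM in control ATRA, higher by 1.66 ± 0.34 (log2, SE; adjusted p = 0.0168). PCDHB9 was at 2.17, 5.69 and 1.60 CPM in KO ATRA and 0.615, 0.571 and 0.492 CPM in control ATRA, higher by 2.49 ± 0.52 (adjusted p = 0.0174). Neither gene's groups overlapped, and for PCDHB9 library KO ATRA 2 was far above the others. PCDHAC2 was at 5.91, 5.87 and 6.50 CPM in KO ATRA and 2.86, 2.18 and 2.85 CPM in control ATRA, higher by 1.21 ± 0.33 (adjusted p = 0.0443). PCDHB16 was at 3.82, 13.4 and 3.69 CPM in KO ATRA and 1.75, 0.961 and 0.622 CPM in control ATRA, higher by 2.65 ± 0.73 (adjusted p = 0.0477). The groups stood apart for these genes too, with KO ATRA 2 the highest for PCDHB16. Without KO ATRA 2 the log2 fold change was 1.76 for PCDHB16 (adjusted p = 0.156) and 1.75 for PCDHB9 (adjusted p = 0.0486). Over the 15 other settings PCDHB9 was called in 13, PCDHGA11 in 12, PCDHAC2 in 5 and PCDHB16 in 5. The count was 2 without KO ATRA 2, 2 without control ATRA 1, 2 without control ATRA 3, and 1 without control ATRA 2, KO ATRA 1 or KO ATRA 3. It was 0 with the near-copy knockout libraries summed. The share of all genes called in these fits is not given here either.

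**Figure D4:**
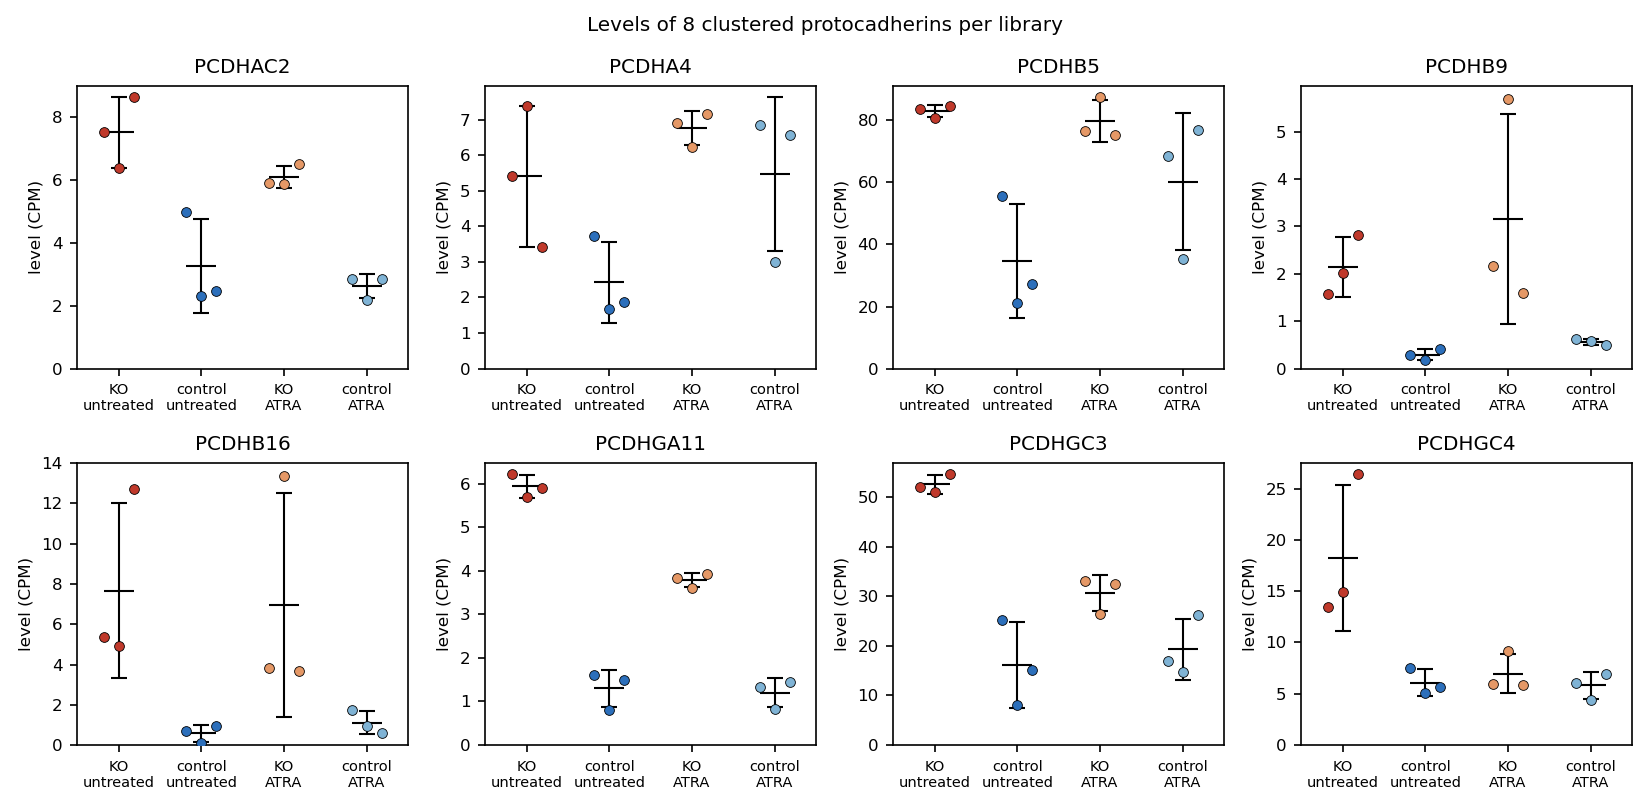
CPM (y axis, from 0, its own scale in each panel) of 8 genes in each library (points, replicates 1 to 3 from left to right), with mean and SD per group. PCDHGA11 and PCDHAC2 have tight knockout groups above the controls in both conditions, and single knockout libraries reach 12.7 and 13.4 CPM for PCDHB16.

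The other abundant members were not called with ATRA. PCDHB5 was at 76.5, 87.5 and 75.3 CPM in KO ATRA and 68.7, 35.3 and 76.8 CPM in control ATRA (log2 0.40 ± 0.35, SE; adjusted p = 0.467). PCDHGC3 was at 33.1, 26.4 and 32.5 CPM in KO ATRA and 17.0, 14.7 and 26.2 CPM in control ATRA (log2 0.67 ± 0.35; adjusted p = 0.231). The groups overlapped for PCDHB5 and were separated for PCDHGC3 by a narrow margin. PCDHB2 (0.67 ± 0.38), PCDHGC5 (0.78 ± 0.35), PCDHAC1 (0.55 ± 0.42), PCDHA4 (0.31 ± 0.41), PCDHGB7 (0.29 ± 0.47) and PCDHGC4 (0.26 ± 0.33) also had positive log2 fold changes that were not called. PCDHA11, named after its values were seen, was the member whose 3 knockout libraries all lay below the controls, at 1.80, 2.35 and 1.76 CPM in KO ATRA and 4.95, 2.81 and 4.28 CPM in control ATRA (log2 -1.03 ± 0.55; adjusted p = 0.247). For 16 members every KO ATRA library was above every control ATRA library, against 16.7% of all genes.

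Within the knockout, the PCDHG sum was lower with ATRA, with no overlap between the groups, but no single member was called. PCDHG summed to 84.7, 64.7 and 83.6 CPM in KO ATRA, against 125, 123 and 119 CPM in KO untreated, while PCDHB sums overlapped between these groups. The C-type sum was 49.6, 46.9 and 50.1 CPM in KO ATRA, against 81.4, 80.3 and 97.8 CPM in KO untreated, a ratio of 0.565. In edgeR 0 of 35 members were called, against 0.0314% of all genes, and 3 had an unadjusted p under 0.05, against 11.7% of all genes. These were PCDHGC4, PCDHGA4 and PCDHGC3, with log2 fold changes of -1.39 ± 0.33, -1.33 ± 0.52 and -0.78 ± 0.35 (SE). PCDHGC4 was at 5.94, 9.12 and 5.84 CPM in KO ATRA and 13.5, 14.9 and 26.4 CPM in KO untreated, with no overlap and an adjusted p of 0.129. DESeq2 called PCDHGC4 lower (adjusted p = 0.00576) and limma-voom called 0 members. Fitting the 2 knockout groups alone in edgeR called 3 lower, PCDHGC3 (adjusted p = 0.0191), PCDHGC4 (0.0413) and PCDHGA11 (0.0498). Of the 13 tested PCDHG genes 12 had log2 fold changes below 0, with a median of -0.67, against 0.02 over all genes. Over all 35 members 7 were above 0, against 51.7% of all genes.

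In control cells, ATRA gave 0 called members in edgeR, against 0.115% of all genes, and 0 in DESeq2 and in limma-voom. 4 members had an unadjusted p under 0.05, against 20.7% of all genes, namely PCDHA4, PCDHB5, PCDHB10 and PCDHA12, at 1.18, 0.80, 0.97 and 0.94 (log2). PCDHA4 was at 6.86, 2.99 and 6.58 CPM in control ATRA and 3.73, 1.67 and 1.87 CPM in control untreated, which overlapped. The median over the 35 was 0.65, with 25 above 0, against 47.7% of all genes. These values turned on control untreated 1, the highest untreated control: without it 8 members were called higher, PCDHA4 (adjusted p = 0.0343), PCDHB5 (0.0226), PCDHB2 (0.0379) and PCDHGB7 (0.0321) among them, and without control ATRA 2 it was 1. The share of all genes called without these libraries is not given here.

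The difference between the responses to ATRA, knockout minus control, was below 0 for 30 of the 35 members, with a median of -0.85, against 0.04 over all genes, of which 51.9% were above 0. Each of these differences uses the same untreated libraries as the comparisons above. None was called in edgeR, where 0 of 19130 genes were, nor in DESeq2 or limma-voom, and 4 had an unadjusted p under 0.05, against 9.76% of all genes. They were all PCDHG genes: PCDHGC4 at -1.33 ± 0.47, PCDHGA4 at -1.82 ± 0.75, PCDHGB1 at -2.28 ± 1.00 and PCDHGB2 at -2.10 ± 0.93 (log2, SE). Without control untreated 1, 1 member was called. With the near-copy knockout libraries summed 0 members were called for this difference, and 0 for ATRA in the knockout.

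The knockout libraries used different members although their totals were alike. The summed level was 292 CPM in KO untreated 3, against 302 and 298 CPM in KO untreated 1 and 2, and 253 CPM in KO ATRA 2, against 245 and 241 CPM in KO ATRA 1 and 3. Yet PCDHB8, PCDHB9, PCDHB13 and PCDHB16, chosen after their values were seen, held 13.0% and 14.2% of PCDHB counts in KO untreated 3 and KO ATRA 2. The same 4 genes held 4.83% to 5.85% in the other knockout libraries and 1.37% to 3.81% in controls. PCDHB8, which was not tested, added little, with 7 counts in KO untreated 3, against 7 and 5 in KO untreated 1 and 2. PCDHB15, outside this set, held 1.02% and 1.08% in KO untreated 3 and KO ATRA 2. It held 0.341% to 0.643% in the other knockout libraries but 1.21% to 1.87% in controls. PCDHGB6, PCDHGA10 and PCDHGB7, neighbours within PCDHG, went the other way, with sums of 23.3 and 19.9 CPM in KO untreated 3 and KO ATRA 2, against 36.1 to 44.1 CPM in the other knockout libraries. Taking both libraries' differences from the mean of the other 2 in their group on the log2(CPM + 0.5) scale, PCDHB16, PCDHB9, PCDHB13, PCDHB15 and PCDHGC4 were over 0.5 higher in both, and PCDHB14, PCDHGB6, PCDHGA10 and PCDHGB7 over 0.5 lower in both. For PCDHB16 these differences were 1.22 and 1.70, and for PCDHB13 1.19 and 1.38, while for PCDHB10, the member that shares most sequence with PCDHB16 and PCDHB9, they were -0.31 and -0.39. PCDHB8 and PCDHB13 share 32.8% and 17.7% of their windows with each other, so their counts are less certain. Across the 35 tested members the 2 libraries' differences had a Pearson r of 0.78 and a Spearman rho of 0.68, given as a description, since members share sequence and promoter types.

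**Figure D5:**
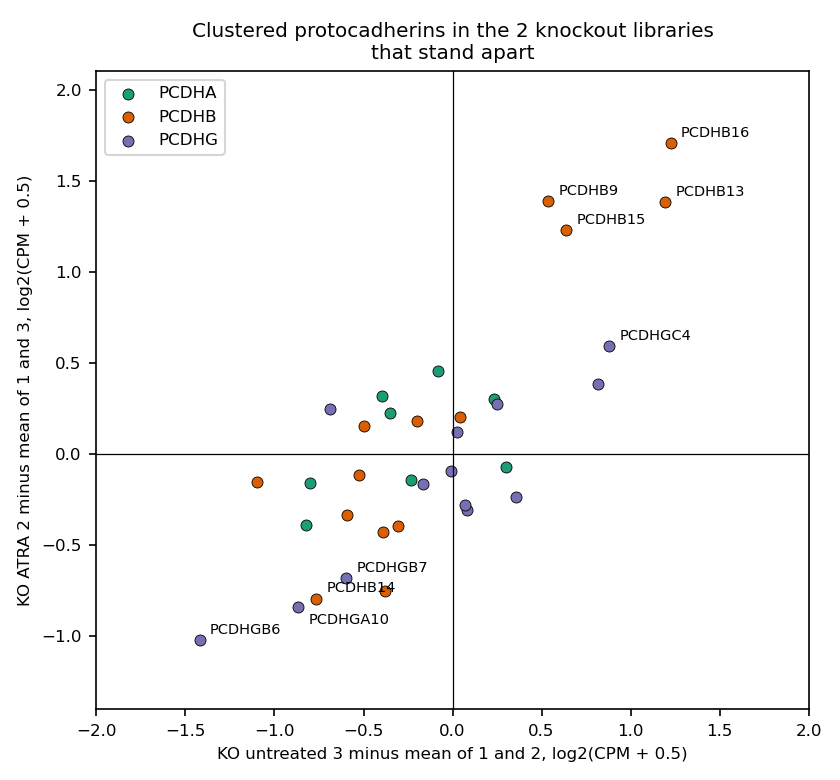
For each of the 35 tested genes, the difference of KO untreated 3 from the mean of KO untreated 1 and 2 (x axis) and of KO ATRA 2 from the mean of KO ATRA 1 and 3 (y axis), in log2(CPM + 0.5), coloured by cluster. PCDHB16, PCDHB9, PCDHB13, PCDHB15 and PCDHGC4 lie at upper right and PCDHGB6, PCDHGA10, PCDHGB7 and PCDHB14 at lower left.

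Other cell type markers differed beside the members. Of the 6 fibroblast markers 4 were called higher in KO untreated and 2 in KO ATRA, beside 13% and 3.27% of all genes. Their sum was 1868 to 13320 CPM in KO untreated and 13.9 to 314 CPM in control untreated. None of the 6 was at 0 in any library, but some values were within counting noise. DCN in control untreated 1 (0.0267 CPM) and POSTN in control ATRA 3 (0.0259 CPM) were below 3 counts (0.0800 and 0.0777 CPM there). In the knockout libraries with the lowest sums of these markers, KO untreated 3 and KO ATRA 2, the members' summed levels were within 11.9 CPM of those of every other library of their group. This total hid shifts among clusters and members, the latter described above. PCDHB summed to 164 CPM in KO ATRA 2, against 136 and 131 CPM in KO ATRA 1 and 3. PCDHG summed to 64.7 CPM in KO ATRA 2, against 84.7 and 83.6 CPM in KO ATRA 1 and 3. Of the neuronal markers (TUBB3, DCX, STMN2, ELAVL3, ELAVL4, MAP2) 0 of 5 tested were higher and 1, DCX, was lower in KO untreated. Beside these stand 13% and 21.9% of all genes. The neuronal markers summed to 209 to 293 CPM in KO untreated and 130 to 413 CPM in control untreated. TUBB3 made up most of this sum. For DCX, STMN2 and ELAVL3 every KO untreated library lay below every control untreated library, while TUBB3 and MAP2 overlapped. STMN2 and ELAVL3 were not called, at log2 fold changes of -2.84 ± 1.10 and -1.79 ± 0.68 (SE). Of 3 tested neural progenitor markers 0 were higher and 2 lower, SOX21 and FABP7, again beside 13% and 21.9% of all genes. Sums over the 5 listed genes were 570 to 655 CPM in KO untreated and 291 to 880 CPM in control untreated. NES, which was not called, made up most of these sums. SOX21 was at 0.342 to 0.492 CPM in KO untreated and 12.1 to 25.2 CPM in control untreated. The part of the fibroblast, neuronal and progenitor markers in the result was not tested. A gene's difference from its mean over the libraries also went with its GC content, with a Spearman rho across genes of 0.140 to 0.522 in knockout libraries and -0.412 to 0.102 in control libraries. With each library's GC trend removed, 20 members were higher without ATRA and 4 with it. Without ATRA, PCDHGA4, PCDHGB7 and PCDHGC5 were then no longer called (adjusted p = 0.0634, 0.0848 and 0.0738). Every called PCDHG gene had a smaller log2 fold change than before, such as 1.30 for PCDHGC3 and 1.15 for PCDHGC4. Called PCDHA and PCDHB genes moved in both directions. Median GC content was 55.0% for PCDHG members, 48.0% for PCDHA and 47.7% for PCDHB.

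Protocadherins outside the clusters were compared as a list of 12, of which 10 were tested. Of these 4 were higher in KO untreated and 0 lower, beside 13% and 21.9% of all genes. PCDH17 was at 10.3, 11.2 and 6.08 CPM in KO untreated and 0.667, 0.862 and 0.864 CPM in control untreated, higher by 3.51 ± 0.44 (log2, SE; adjusted p = 0.00141). PCDH7 and PCDH18 were higher by 3.27 ± 0.68 (adjusted p = 0.00608) and 2.16 ± 0.62 (adjusted p = 0.0199). With ATRA 2 were higher, PCDH17 by 2.64 ± 0.42 (adjusted p = 0.00609) and PCDH18 by 3.04 ± 0.65 (adjusted p = 0.0196), and 0 were lower, beside 3.27% and 4.24% of all genes. The median log2 fold change of the 10 was 1.14 without ATRA and 0.78 with it.

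Genes that act on the clusters in other cells were compared as lists. Of 22 architectural and silencing factors tested, 2 were higher and 4 lower in KO untreated, beside 13% and 21.9% of all genes. Their median log2 fold change was -0.08. With ATRA 0 were called in either direction in edgeR, where 10 of the 22 had an unadjusted p under 0.05, against 28.1% of all genes. CTCF was at 89.2, 82.8 and 98.0 CPM in KO untreated and 126, 54.2 and 95.6 CPM in control untreated, which overlapped (log2 -0.03 ± 0.26, SE; adjusted p = 0.94). With ATRA it differed by -0.38 ± 0.27 (adjusted p = 0.374). RAD21, a cohesin subunit, was at 79.7, 66.9 and 78.8 CPM in KO untreated and 102, 172 and 212 CPM in control untreated, lower by a log2 fold change of -1.11 ± 0.32 (adjusted p = 0.0205). WAPAL, which releases cohesin from DNA, had a log2 fold change of -1.30 ± 0.33 (adjusted p = 0.0119) and MAU2, part of the cohesin loader, 0.63 ± 0.19 (adjusted p = 0.0236). Of 19 signalling partners of the proteins, 2 were higher, among them CYFIP2, a subunit of the WAVE complex that clustered protocadherins bind, and 7 were lower in KO untreated, again beside 13% and 21.9% of all genes. In the ATRA comparison CYFIP2 was higher and RET, a receptor kinase that phosphorylates protocadherins, was lower. CYFIP2 and RET were named after their values were seen.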

How the data were processed

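Raw counts per gene symbol and a length per gene were deposited by the authors in 1 table, and all 12 of its sample columns were used. Per the labels, a stranded mRNA kit (Illumina TruSeq) was used for the libraries. Per the submitters' processing notes, bcl2fastq, TopHat2, Subread, featureCounts and DESeq2 were used on the builds hg19 and GRCh37. Not given in the sources used here: their versions, the annotation, the strand setting and how multiply matching reads were treated. Deposited lengths were compared with canonical transcripts and not used for levels.

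The members and gene lists were chosen with earlier results of these data known. Counts were filtered with filterByExpr (minimum count 10), scaled by TMM and fitted in edgeR 4.0.16 (R 4.3.3) with 1 coefficient per group over all 12 libraries, and 5 contrasts were tested by the quasi-likelihood F-test with Benjamini-Hochberg adjustment over 19130 genes. The fit was tested on simulated data. Alternatives were RLE scaling, DESeq2 1.42.0, limma-voom (limma 3.58.1), other filters, the compared groups alone, a replicate term, near-copy libraries summed, GC trends removed and each library left out.

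Named with full values are the C-type members, the 3 most abundant members per cluster, up to 5 members called per contrast and direction by smallest adjusted p, CTCF, and up to 3 called genes per contrast of the non-clustered protocadherins and of the regulators. PCDHA14, PCDHB17 and PCDHB18, annotated as pseudogenes in GENCODE v44, were left out. Coordinates and promoters are from RefSeq on GRCh38.p14 and were not converted from or to the build of the counts. Counting noise limits members with few counts, since 3 counts equal 0.0432 to 0.128 CPM.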

Additional observations from a re-analysis of the deposited data

Results flagged for a closer look

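PCDHGB8P, a pseudogene row inside PCDHG that the choice of members left out, had more counts in the knockout than in control cells. It was at 1.30, 0.948 and 0.984 CPM in KO untreated and 0.213, 0.141 and 0.130 CPM in control untreated, which edgeR put at a log2 fold change of 2.74 ± 0.39 (SE; adjusted p = 0.0023). With ATRA it was at 0.985, 0.880 and 0.826 CPM in KO ATRA and 0.0922, 0.130 and 0.0777 CPM in control ATRA, a log2 fold change of 3.12 ± 0.42 (adjusted p = 0.00252). The knockout libraries did not overlap the controls in either condition. How many of its reads also match PCDHGB genes was not tested.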

How the results depend on the processing

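No called fold change of a named member, and none called under an alternative, changed direction. Of 960 alternative fold changes of named members 860 kept their direction and side of the threshold, 60 lost a call, 9 gained one and 31, of 12 fold changes that were not called, changed sign. For ATRA in control cells PCDHAC1 was at 0.10 with limma-voom and 0.0045 with a replicate block. The PCDHAC2 difference between responses was -0.023 with RLE size factors, -0.027 with DESeq2, -0.092 with limma-voom, -0.018 with a replicate block and -0.057 with near-copy libraries summed. For ATRA in the knockout PCDHB5 was at 0.028 with the GC trend removed. With each library left out, log2 fold changes for ATRA in control cells ran from -0.33 to 0.54 for PCDHAC1, -0.50 to 0.14 for PCDHAC2, -0.37 to 0.10 for PCDHGA11, -0.063 to 0.74 for PCDHGC3, -0.20 to 0.13 for PCDHGC4 and -0.39 to 0.13 for PCDHGC5. For ATRA in the knockout they ran from -1.03 to 0.43 for PCDHB16, -0.016 to 0.086 for PCDHB2 and -0.18 to 0.88 for PCDHB9. They ran from -2.3e-05 to 0.60 for PCDHGB7 in KO ATRA against control ATRA, and from -0.44 to 0.20 for the PCDHAC2 difference between responses. Members called without ATRA, KO against control, were 6 with near-copy libraries summed and 9 to 27 with each library left out. Members called with ATRA were 2 with the compared groups alone, 0 with near-copy libraries summed and 1 to 2 with each library left out. For ATRA in the knockout, 1 was called by DESeq2, 3 with the compared groups alone and 0 with each library left out. For ATRA in control cells 0 to 8, and for the difference between responses 0 to 1, were called with each library left out. None of these counts with libraries left out or summed is set against the share of all genes called in the same fit. The summed level in KO untreated was 149 CPM for PCDHB and 125 CPM for PCDHG with RLE size factors, and 137 and 115 CPM with total counts. DESeq2 and limma-voom called 25 each without ATRA, and 6 and 3 with it. Over all genes and in either direction they called 7831 and 6440 without ATRA, and 2964 and 1015 with it. For ATRA in the knockout DESeq2 called 554 of all genes. The cause of these changes was not tested, other than the smaller number of libraries where libraries were left out or summed.

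The labels give each group the replicate numbers 1 to 3. Same-numbered libraries did not consistently deviate together: their correlations ran from -0.59 to 0.51 over 18 pairs, with 4 over 0.1 and 11 below 0. The highest were 0.51 for KO untreated 1 with KO ATRA 1 and 0.31 for control untreated 2 with control ATRA 2. The numbers were therefore not taken to pair libraries. With a replicate block 22 members were called without ATRA and 2 with it, and 0 in the other 3 contrasts.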
